A study of Homo sapiens with 12 samples.

Results

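The 10 genes followed here were grouped as feedback genes of mitogen-activated protein kinase (MAPK) signalling: the dual-specificity phosphatases DUSP1, DUSP2, DUSP4, DUSP5, DUSP6, DUSP10 and DUSP22, the Sprouty gene SPRY1, and the Sprouty-related genes SPRED1 and SPRED2. DUSP22 is an atypical member, and the group name does not state its role. They were taken by gene name from the 26318 genes of the count table, and all 10 were present. Of these, 8 held enough counts for the test over all libraries, while DUSP6 and SPRY1 did not.

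The cells were TMD8, an established human lymphoma line of activated B cell (ABC) type. One group of 6 libraries came from TMD8 cells given a short hairpin RNA (shRNA) against IRF4, and the other 6 came from TMD8 cells given a scramble shRNA, called control. Both groups were of the same line and were harvested at 24 h, and both carried an shRNA, so neither group was untouched. The labels give neither the number of hairpins nor how they were delivered. Also, they do not say if replicates were grown apart, so each p-value reflects only how these libraries varied, which may be technical.

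The MAPK pathways pass signals from surface receptors through Ras and a chain of kinases to ERK, JNK or p38, which are active when phosphorylated. Most of these DUSP proteins remove those phosphates, and Sprouty and SPRED proteins act higher up, between the receptor and Raf. Several of these genes are themselves transcribed in response to ERK activity, which closes a feedback loop, and in B cells the pathway runs downstream of the antigen receptor.

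The libraries held between 31.3 and 38.2 M counts each (M, 1e6 counts), and 3 counts in a library correspond to 0.0786 to 0.0959 counts per 1e6 (CPM). Library names carried a number 1 or 2 of unstated meaning, and the 3 IRF4 shRNA and 3 control libraries with each number are called library series 1 and 2. IRF4, the target, averaged 610.5 ± 101 CPM in IRF4 shRNA libraries and 1479.9 ± 55.9 CPM in control libraries (SD, n = 6 each), a log2 fold change of -1.28 (with a standard error, SE, of 0.09; adjusted p = 1.41e-08 by edgeR). The shRNA libraries retained 34.7% of the control level in series 1 and 47.9% in series 2. The 8 B cell markers summed to between 11566 and 12019 CPM in IRF4 shRNA libraries and between 9477 and 10307 CPM in control libraries. Summed T cell markers stayed between 0.817 and 1.69 CPM with IRF4 shRNA and between 0.0852 and 0.699 CPM in control, and CD3E, TRAC and CD247, the 3 of 6 in the table, each averaged under 1 CPM over the 12 libraries. Myeloid markers, 5 of 6 in the table, each under 1 CPM over the 12 libraries and MPO at 0, summed to 1.44 to 1.91 CPM with IRF4 shRNA and 0.445 to 1.16 CPM in control. Epithelial markers summed to 20.8 to 34.0 CPM with IRF4 shRNA and 60.8 to 78.4 CPM in control, nearly all from CDH1, with EPCAM and KRT8 each under 1 CPM and KRT18 at 0. Fibroblast markers summed to 7.16 to 11.5 CPM with IRF4 shRNA and 3.93 to 5.51 CPM in control. Within that list COL1A1 had 5.06 CPM with IRF4 shRNA and 4.18 CPM in control, PDGFRB had 2.78 CPM with IRF4 shRNA and 0.13 CPM in control, and COL1A2 had 0.797 CPM with IRF4 shRNA and 0.0803 CPM in control. Their part in the results was not tested.

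Promoter windows of RefSeq (GRCh38.p14, from 250 bases before to 50 after the start of transcription) were at hand for 8 of the 10 genes, in 11 windows; DUSP4 and DUSP5 had none. Those of DUSP2, DUSP1 and SPRED2 are shown, since these genes were all higher with IRF4 shRNA, DUSP1 and SPRED2 because their windows hold the motif marked and DUSP2 because it was among the genes with the largest change. Each is printed 5′ to 3′ on the strand of its gene, and capitals mark TGACGTC on either strand, the core of the cAMP response element. The windows lie at chr2:96145391-96145690, chr5:172771146-172771445 and chr2:65432550-65432849, all on the minus strand.
DUSP2: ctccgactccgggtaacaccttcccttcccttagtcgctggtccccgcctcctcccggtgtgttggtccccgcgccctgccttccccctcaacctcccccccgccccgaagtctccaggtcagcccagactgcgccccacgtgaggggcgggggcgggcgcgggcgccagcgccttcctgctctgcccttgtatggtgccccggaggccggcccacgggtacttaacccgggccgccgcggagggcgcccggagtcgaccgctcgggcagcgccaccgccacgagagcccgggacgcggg
DUSP1: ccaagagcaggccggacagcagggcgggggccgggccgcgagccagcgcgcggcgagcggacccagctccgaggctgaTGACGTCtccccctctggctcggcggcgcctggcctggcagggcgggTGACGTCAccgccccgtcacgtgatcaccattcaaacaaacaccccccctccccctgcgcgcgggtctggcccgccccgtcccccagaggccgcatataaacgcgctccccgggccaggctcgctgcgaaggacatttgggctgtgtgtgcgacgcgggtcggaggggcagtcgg
SPRED2: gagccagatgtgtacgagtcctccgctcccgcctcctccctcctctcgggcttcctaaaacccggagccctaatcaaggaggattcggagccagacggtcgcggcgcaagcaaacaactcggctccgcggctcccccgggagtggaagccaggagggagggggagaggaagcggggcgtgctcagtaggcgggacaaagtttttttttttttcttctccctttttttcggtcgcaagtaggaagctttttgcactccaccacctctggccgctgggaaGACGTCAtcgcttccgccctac

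The DUSP1 window holds TGACGTC at 172 bases before the start site and again, as an overlapping match on both strands, at 125 and 124 bases before it. SPRED2 has 1 match, 28 bases past the start site of the window shown. The DUSP2 window, 75% of whose bases are G or C, has none. TGACGTC or its reverse complement GACGTCA occurs in 3.45% of all 35116 windows and in 2 of the 11 of these genes, both shown. The windows of DUSP10 and SPRED1 and the other SPRED2 window, also of genes that were higher, hold none. Other motifs were searched on both strands. The ETS core CCGGAAG was in 10.3% of all windows and in 1 window of these genes, that of SPRY1. The AP-1 motif TGANTCA was in 7.71% of all windows and in 1 window of these genes, at another SPRED2 start, and the interferon regulatory factor motif GAAANNGAA was in 8.11% of all windows and in 0 of the 11. A match describes the letters of the window and is not evidence of a bound factor.

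The first comparison set all 6 IRF4 shRNA libraries against all 6 controls. Of the 8 tested genes, 6 were higher with IRF4 shRNA (DUSP4, DUSP2, DUSP10, DUSP1, SPRED1 and SPRED2), DUSP22 was lower, and DUSP5 did not pass the test. Over all 16437 genes tested by edgeR's quasi-likelihood test, 48.2% passed an adjusted p of 0.05, 24.2% higher and 23.9% lower. The median log2 fold change of the 8 genes was 0.64, beside -0.01 for all genes tested. In 7 of the 8 the IRF4 shRNA and control libraries did not overlap in CPM, against 30.8% of all genes tested. Of all calls, 50.3% were higher, and 63.9% were when libraries were scaled by size alone instead of TMM, edgeR's usual scaling. With library size alone the same 6 of these genes were higher and DUSP22 was lower.

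**Figure D1:**
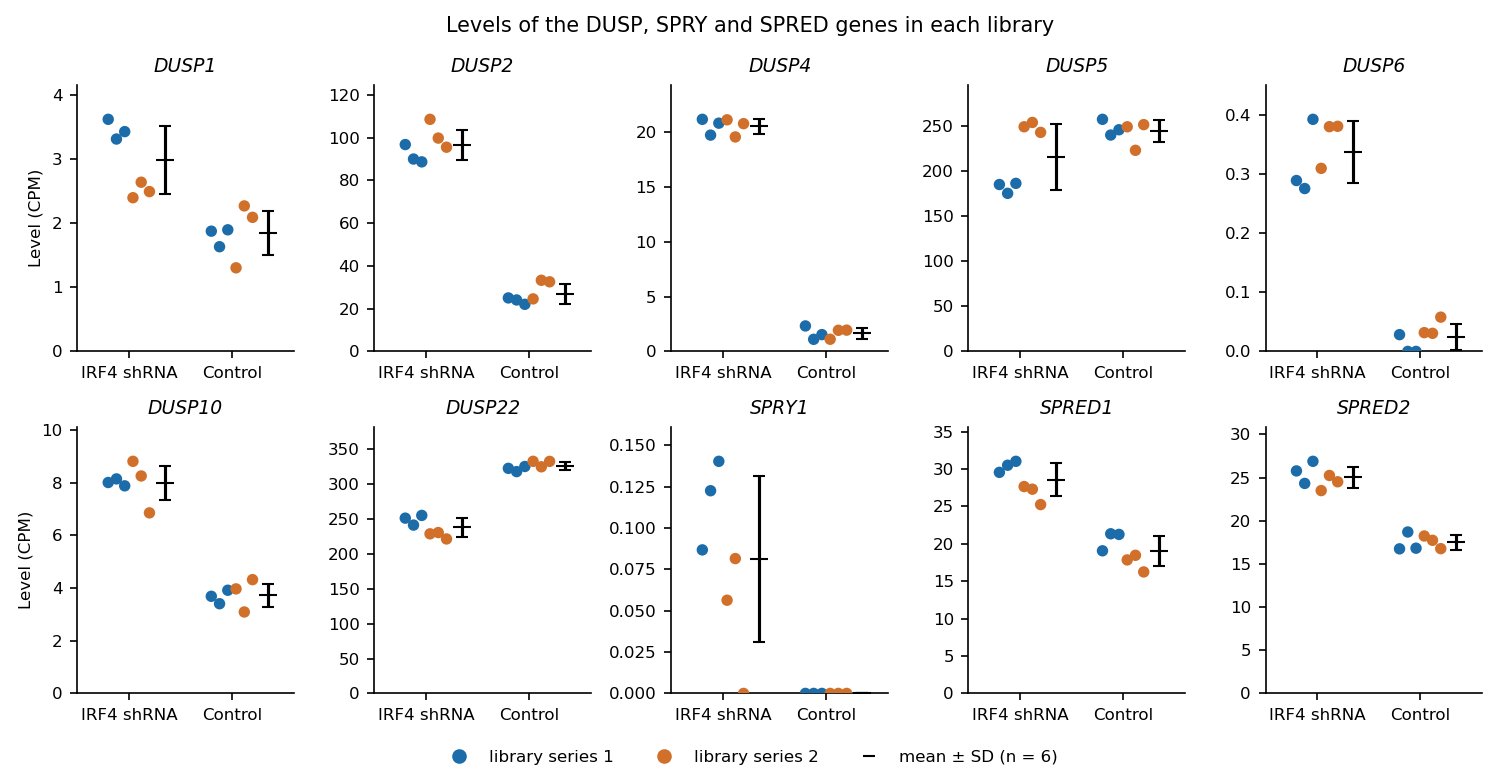
Level of each gene in CPM (vertical axes, from 0 and differing between panels) in the 6 IRF4 shRNA and the 6 control libraries, as points coloured by library series, with the mean ± SD beside them. DUSP4 lies between 19.6 and 21.2 CPM with IRF4 shRNA and between 1.11 and 2.33 CPM in control, while the DUSP5 libraries of series 1 and 2 part only in the IRF4 shRNA group.

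DUSP4 and DUSP2 are phosphatases of the nucleus, DUSP4 acting on ERK and JNK and DUSP2 on ERK and p38, and DUSP2 is known as a gene of activated lymphocytes. DUSP4 (chr8:29333064-29350684, minus strand, hg38) stood at 21.2, 19.8 and 20.9 CPM in the IRF4 shRNA libraries of series 1 and at 21.2, 19.6 and 20.8 CPM in those of series 2. Its control libraries held 2.33, 1.11 and 1.54 CPM in series 1 and 1.11, 1.93 and 1.94 CPM in series 2. Every shRNA library was far above every control, and the shRNA libraries lay close together in both series. The mean was 20.6 ± 0.706 CPM with IRF4 shRNA and 1.66 ± 0.494 CPM in control (SD, n = 6 each), 12.3-fold higher (log2 3.62, SE 0.14, edgeR adjusted p = 2.03e-11). Within series 1 the value was 3.62 and within series 2 it was 3.63.

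DUSP2 (chr2:96143169-96145440, minus strand) had 96.8, 90.0 and 88.7 CPM in the series 1 shRNA libraries and 109, 99.8 and 95.6 CPM in those of series 2. In control it had 25.0, 24.1 and 22.0 CPM in series 1 and 24.6, 33.3 and 32.6 CPM in series 2. The groups did not come near each other, and controls 5 and 6 stood above the other 4. DUSP2 averaged 96.6 ± 7.23 CPM with IRF4 shRNA and 26.9 ± 4.76 CPM in control, a 3.58-fold difference (log2 1.84, SE 0.10, edgeR adjusted p = 7.72e-10). By the root-mean-square difference of centred log2 CPM over the 12 libraries, the genes with the pattern nearest to DUSP4 were BOC (0.27), LGALS9 (0.28) and MX1 (0.28), where the median over all genes was 1.85. BOC averaged 2.56 CPM with IRF4 shRNA and 0.161 CPM in control, so its control values rest on few counts. Nearest to DUSP2 were PLXND1 (0.16), ZFP36L1 (0.16) and IFI35 (0.17), with a median of 0.96.

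DUSP10, whose product prefers JNK and p38 over ERK, and DUSP1, an immediate early gene whose product acts on all 3 kinase families, were present at lower levels. DUSP10 (chr1:221701424-221742089, minus strand) ran from 6.86 through a median of 8.08 to 8.82 CPM with IRF4 shRNA, against 3.09, 3.80 and 4.32 CPM in control. No control library reached the lowest shRNA library. The means were 8.0 ± 0.644 CPM with IRF4 shRNA and 3.73 ± 0.437 CPM in control, 2.14-fold higher (log2 1.10, SE 0.09, edgeR adjusted p = 8.44e-08), with log2 values of 1.12 in series 1 and 1.08 in series 2.

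DUSP1 (chr5:172768096-172771195, minus strand) had 3.62, 3.31 and 3.42 CPM in the series 1 shRNA libraries and 2.39, 2.64 and 2.49 CPM in those of series 2. Control libraries held 1.87, 1.63 and 1.89 CPM in series 1 and 1.30, 2.27 and 2.09 CPM in series 2. The shRNA libraries of series 1 stood apart from all others, while those of series 2 lay just above the highest control. DUSP1 was 1.61-fold higher with IRF4 shRNA over all libraries, at 2.98 ± 0.531 CPM with IRF4 shRNA against 1.84 ± 0.341 CPM in control (log2 0.69, SE 0.15, edgeR adjusted p = 0.00138). With counts summed to 2 samples a group the value was again 0.69, with an adjusted p of 0.0541. In series 1 the log2 fold change was 0.93 (adjusted p = 0.000261). In series 2 it was 0.42 (SE 0.22, adjusted p = 0.161) and did not pass, and without control replicate 4 it was 0.20. The counts behind DUSP1 were 41 to 125 per library. An antisense gene, AC022217.3, covers DUSP1, and no source used here says if the counting used strand, so their reads cannot be told apart. Its own level was 0.234 CPM with IRF4 shRNA and 0.160 CPM in control.

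SPRED1 and SPRED2 bind Ras and Raf at the membrane, and SPRED1 brings the Ras inhibitor neurofibromin there. SPRED1 (chr15:38252836-38357249, plus strand) ran from 25.3 through a median of 28.6 to 31 CPM with IRF4 shRNA, against 16.2, 18.8 and 21.3 CPM in control. SPRED2 (chr2:65310851-65432637, minus strand) ran from 23.5 through 24.9 to 26.9 CPM with IRF4 shRNA, against 16.7, 17.3 and 18.7 CPM in control. For both genes the lowest shRNA library lay above the highest control. SPRED1 was 1.5-fold higher (log2 0.58, SE 0.07, edgeR adjusted p = 8.84e-06) and SPRED2 1.43-fold higher (log2 0.52, SE 0.05, adjusted p = 4.31e-07). In series 1 their log2 values were 0.56 and 0.55, and in series 2 they were 0.62 and 0.49, each past the threshold. In bulk RNA such as this, fewer cells expressing a gene and less RNA per cell cannot be told apart.

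DUSP6 and SPRY1, textbook ERK feedback genes, were near the counting limit in TMD8. DUSP6 (chr12:89347235-89352501, minus strand), a phosphatase of the cytoplasm specific for ERK, had 10, 9 and 14 counts in the shRNA libraries of series 1 and 11, 14 and 15 in those of series 2. Its control libraries held 1, 0 and 0 counts in series 1 and 1, 1 and 2 in series 2. The groups did not overlap. Summed over libraries there were 73 counts with IRF4 shRNA and 5 in control, a depth-scaled ratio of 13.5 with an exact 95% interval of 5.54 to 42.9, which covers counting error only. By exact permutation, two-sided, p was 0.00216, which is as low as 6 against 6 libraries allow. Without the filter on low counts edgeR gave 3.58 on the log2 scale (SE 0.46, adjusted p = 8.57e-06), in a fit where 32.5% of 25215 genes passed. Within series 2, DUSP6 passed the filter, through its shRNA libraries alone, and had a log2 value of 3.04 (SE 0.49, adjusted p = 0.00142). A gene let in that way had to differ. The antisense gene AC024909.2 overlaps DUSP6 and is not among the counted genes, so any of its reads there cannot be told apart.

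SPRY1 (chr4:123396795-123403760, plus strand), which restrains receptor tyrosine kinase signalling, had 3, 4 and 5 counts in series 1 and 2, 3 and 0 in series 2 with IRF4 shRNA, and 0 in all 6 control libraries. One shRNA library thus overlapped the controls. The summed 17 counts with IRF4 shRNA, against 0 in control, gave an exact 95% lower limit of 3.82 for the depth-scaled ratio, with no upper limit. The exact two-sided permutation p was 0.0152, and edgeR without the filter gave an adjusted p of 0.00745. Neither gene passed the filter over all libraries, so neither is counted among the 8, and their unfiltered values rest on counts in the shRNA libraries.

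DUSP22 was the gene lower with IRF4 shRNA. It encodes an atypical phosphatase that lacks the MAPK docking domain of its relatives, and it is known for restraining T cell receptor signalling through the kinase Lck and for acting on the JNK pathway. DUSP22 (chr6:291630-351355, plus strand) had 251, 241 and 255 CPM in the series 1 shRNA libraries and 229, 230.4 and 221 CPM in those of series 2. Control libraries held 322, 318 and 325 CPM in series 1 and 332, 325 and 332 CPM in series 2. All shRNA libraries were below all controls, and the controls were close to each other. The mean was 238 ± 13.4 CPM with IRF4 shRNA and 326 ± 5.77 CPM in control, 1.37-fold lower (log2 -0.45, SE 0.04, edgeR adjusted p = 8.83e-08). Its first 384 bases overlap the antisense gene AL365272.1, at 31.2 CPM with IRF4 shRNA and 37.9 CPM in control (log2 -0.28), and reads of the overlap cannot be told apart. DUSP22 ends 40.4 kb before IRF4 on the same strand, and 0 genes of the table lie between them.

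DUSP5 (chr10:110497907-110511533, plus strand), a phosphatase of the nucleus specific for ERK, differed between the library series. In series 1 the shRNA libraries held 185, 175 and 186 CPM, against 257, 239.9 and 246 CPM in control. In series 2 the shRNA libraries held 249, 254 and 243 CPM, against 249, 223 and 251 CPM in control. The series 1 groups did not overlap, whereas those of series 2 did. Over all libraries DUSP5 averaged 215 ± 36.7 CPM with IRF4 shRNA and 244 ± 12 CPM in control, and its log2 value of -0.18 (SE 0.09, edgeR adjusted p = 0.114) did not pass. With library series as a covariate it was -0.20 with an adjusted p of 0.0454. Within series 1 DUSP5 fell by 0.45 on the log2 scale (SE 0.04, adjusted p = 2.96e-06), and within series 2 the value was 0.06 (SE 0.05, adjusted p = 0.44), or -0.01 without control replicate 5.

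**Figure D2:**
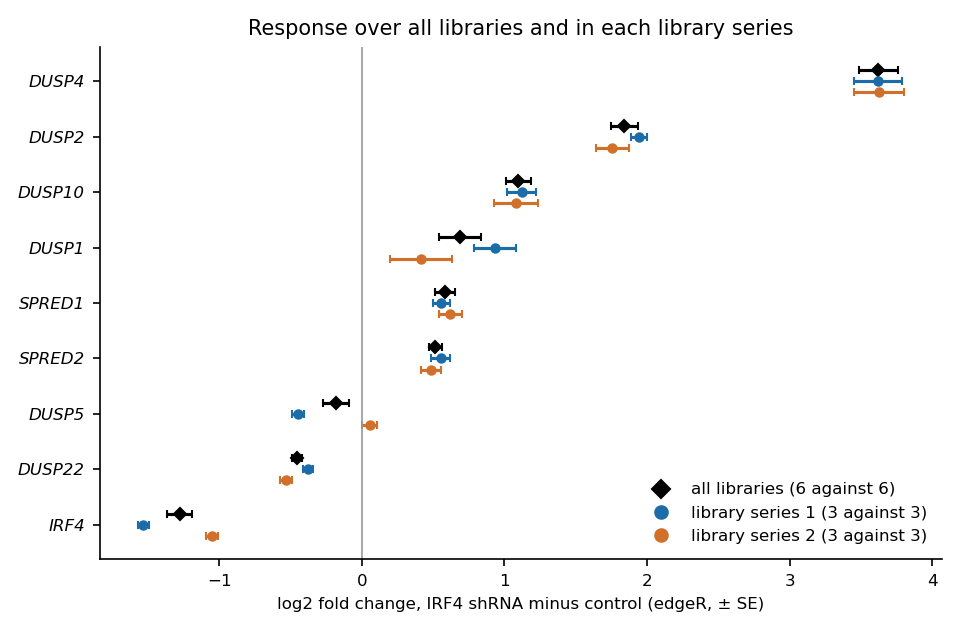
Log2 fold change, IRF4 shRNA minus control, with its SE (horizontal axis), of the 8 tested genes and IRF4 over all libraries (black, 6 against 6) and in library series 1 and 2 (coloured, 3 against 3). DUSP4 is at 3.62 and 3.63 in the 2 series, and DUSP5 is at -0.45 in series 1 and 0.06 in series 2.

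Taken by series, 6 of 8 tested genes were higher and 2 lower in series 1, where 50.5% of all genes passed, 25.8% higher and 24.6% lower. In series 2, 5 of the same 8 were higher and 1 lower, leaving out DUSP6, which entered that fit through its shRNA libraries alone, with 38.1% of all genes passing, 20.2% higher and 17.9% lower. Among all genes tested, the groups did not overlap in 58.2% in series 1 and in 50.3% in series 2. The smallest exact permutation p for 3 against 3 libraries is 0.1, so single genes were not tested that way within a series.

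The difference between the series was tested as an interaction, series 2 minus series 1. It passed for 2 of the 8 genes, DUSP5 and DUSP22, where 14% of all genes passed, 5.07% upward and 8.97% downward. For DUSP5 the difference was 0.49 (SE 0.07, edgeR adjusted p = 0.00274), and it passed in all 17 alternative settings with values of 0.43 to 0.62. For DUSP22 it was -0.17 (SE 0.05, adjusted p = 0.0416), and it passed in 4 of 17. It was lost when IRF4 shRNA replicate 1, 3, 4, 5 or 6 or control replicate 2, 3, 5 or 6 was left out, at adjusted p of 0.0556 to 0.101. IRF4 itself differed by 0.46 (adjusted p = 0.0011), being lower in series 1. What the series number stands for, and the part of the IRF4 level in the DUSP5 difference, were not tested.

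For DUSP1 the difference was -0.53 (SE 0.25, adjusted p = 0.164), and without control replicate 4 it was -0.73 (adjusted p = 0.0153). For DUSP2 it was -0.20 (SE 0.13, adjusted p = 0.316), and without control replicate 4 it was -0.33 (adjusted p = 0.00967). DUSP2 turned to 0.48 (adjusted p = 0.00255) once the trend of each library with transcript GC content was removed. Its transcripts are 63.9% GC. The libraries also differed in GC trend when deviations were taken from the mean of their own group, a centring that the correction did not use. Spearman's rho across genes was then 0.24 to 0.31 in shRNA libraries of series 1 and -0.33 to -0.19 in those of series 2. Series 1 controls ran from -0.50 to -0.05. In series 2, control replicate 4 had -0.35, replicate 5 had 0.42 and replicate 6 had 0.60. DUSP4, DUSP10, SPRED1 and SPRED2 had differences of -0.01 (SE 0.28), -0.06 (SE 0.18), 0.05 (SE 0.10) and -0.08 (SE 0.10), and none of them passed under any of the 17 settings.

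**Figure D3:**
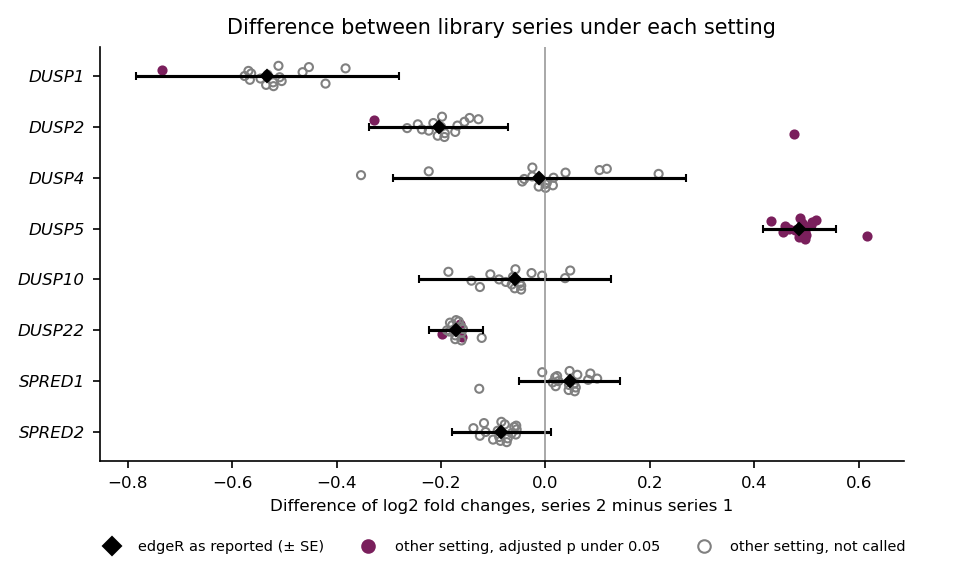
Difference of the log2 fold changes between library series, series 2 minus series 1 (horizontal axis), for the 8 tested genes, as reported with its SE (black) and under the 17 alternative settings (filled where the adjusted p was under 0.05). The DUSP5 points lie between 0.43 and 0.62 and are all filled, whereas 4 DUSP22 points are.

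To compare levels between genes, CPM was divided by the exon length of each gene in kb. With IRF4 shRNA, DUSP5 was highest at 82.4 ± 14 CPM per kb, followed by DUSP2 at 50.0 ± 3.74 and DUSP22 at 41.8 ± 2.35 CPM per kb. In control DUSP5 was again highest at 93.4 ± 4.59 CPM per kb, but DUSP22 came next at 57.3 ± 1.01 and DUSP2 after it at 13.9 ± 2.47 CPM per kb (SD, n = 6 each). These 3 genes stood well above the rest in both groups, with no overlap between neighbours in the order. SPRED2 and SPRED1 followed, at 4.86 and 3.46 CPM per kb with IRF4 shRNA and 3.40 and 2.31 CPM per kb in control. DUSP4 was at 2.83 CPM per kb with IRF4 shRNA, overlapping DUSP10 at 2.74 and above DUSP1 at 1.48 CPM per kb. In control DUSP4 was at 0.229 CPM per kb, below DUSP10 at 1.28 and DUSP1 at 0.913 CPM per kb, which overlapped each other. DUSP6 and SPRY1 were last, at 0.073 and 0.0205 CPM per kb with IRF4 shRNA and 0.00535 and 0 CPM per kb in control.

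**Figure D4:**
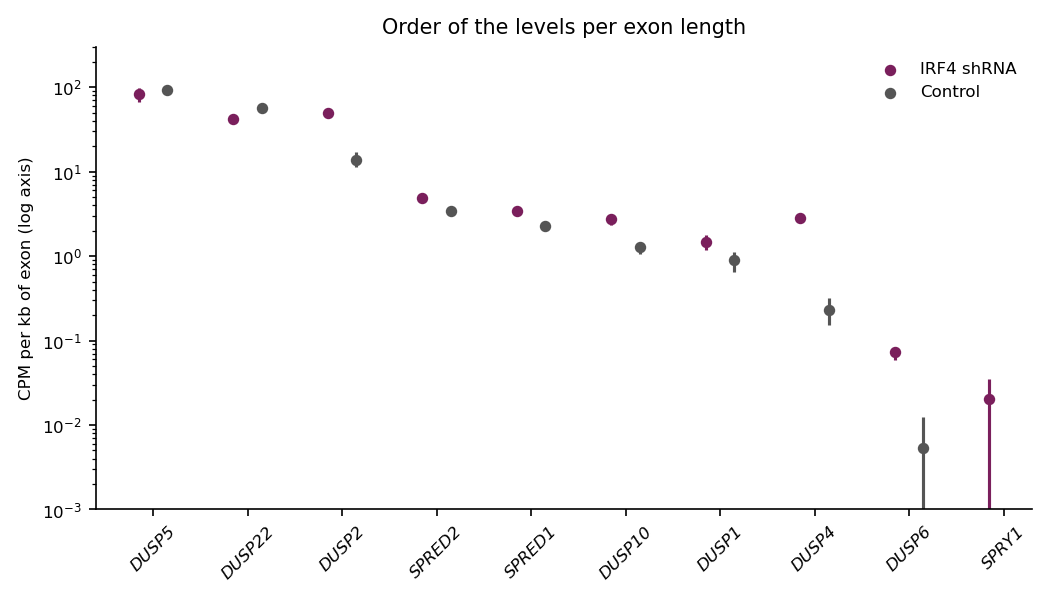
Level per exon length (vertical log axis, CPM per kb) of the 10 genes in IRF4 shRNA and control libraries, ordered by the control level, with points at the mean of 6 libraries and lines over their range. Lines that reach the bottom of the axis include libraries at 0, and SPRY1 in control, at 0 throughout, is not drawn; DUSP4 stands at 2.83 CPM per kb with IRF4 shRNA and 0.229 CPM per kb in control.

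Around these genes, 6 lists of the pathway were examined over all libraries. Of 14 tested other members of the DUSP, SPRY and SPRED families, 5 were higher and 1 lower with IRF4 shRNA, 42.9% called beside 48.2% of all genes, with a median log2 fold change of 0.23. With counts summed to 2 samples a group, 3 of 15 tested were higher. In that fit 4242 of 19241 genes were called, 2310 of them higher. SPRY4, an inhibitor of receptor tyrosine kinase signalling, had 1.29 ± 0.235 CPM with IRF4 shRNA and 0.161 ± 0.132 CPM in control (log2 2.97, SE 0.33, edgeR adjusted p = 3.23e-06). Its control libraries held 0.0583 to 0.406 CPM, so SPRY4 passed the low-count filter through its shRNA libraries, and a gene let in that way had to differ. SPRED3, a close relative of SPRED1, was at 11.7 ± 1.06 CPM with IRF4 shRNA against 5.73 ± 0.978 CPM in control (log2 1.02), and DUSP16, a phosphatase preferring JNK, rose by 0.51 on the log2 scale. DUSP3, a small atypical phosphatase acting on ERK and JNK, was the member lower, at 32.7 ± 2.36 CPM with IRF4 shRNA against 61.3 ± 3.83 CPM in control (log2 -0.91, adjusted p = 4.03e-09). SPRY4, SPRED3 and DUSP3 each had groups that did not overlap, and those of DUSP16 did.

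Of 27 tested kinases, adaptors and effectors of the ERK cascade itself, 4 were higher and 4 lower, 29.6% called beside 48.2% of all genes, with a median of -0.01, the value for all genes. In series 1, 6 were higher and 10 lower, 59.3% called beside 50.5% of all genes. KSR1, a scaffold that holds Raf, MEK and ERK together, had 58.9 ± 10.2 CPM with IRF4 shRNA and 34.7 ± 1.76 CPM in control (log2 0.77, SE 0.09, edgeR adjusted p = 8.56e-06). GAB1, a docking protein of activated receptors, had 35.3 ± 4.47 CPM with IRF4 shRNA and 66.6 ± 8.43 CPM in control (log2 -0.92, SE 0.09, adjusted p = 1.25e-06). RPS6KA1, a kinase activated by ERK, was lower (log2 -0.35), and ELK4, a transcription factor phosphorylated by ERK, was higher (log2 0.26, adjusted p = 0.0026), although ELK4 lost the call with counts summed to 2 samples a group (0.27, adjusted p = 0.0889). The list's counts depended on the scaling, with 11 higher and 2 lower under library size alone and 8 higher after GC correction. With counts summed to 2 samples a group, 1 was higher and 2 lower. In that fit 4242 of 19241 genes were called, 2310 of them higher. Without IRF4 shRNA replicate 3, 7 were higher, and without control replicate 6, 7 were lower.

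Of 26 tested genes of the JNK and p38 cascades, 12 were higher and 1 lower, with a median of 0.16. The share called, 50%, was near the 48.2% of all genes, but of all genes 24.2% were higher and 23.9% lower. In series 1, 16 were higher and 4 lower, 76.9% called beside 50.5% of all genes. In series 2, 9 were higher and 2 lower, 42.3% called beside 38.1% of all genes. With counts of all libraries summed to 2 samples a group, 6 of 26 were higher, where 2310 of 19241 genes were higher. Without control replicate 5, 2 were lower. MAP3K5, which activates both branches under stress, had 15.1 ± 1.02 CPM with IRF4 shRNA and 7.60 ± 0.756 CPM in control (log2 0.99, SE 0.07, edgeR adjusted p = 2.96e-08). MAPK10, the JNK gene best known from neurons, had 1.06 ± 0.206 CPM with IRF4 shRNA and 0.435 ± 0.108 CPM in control (log2 1.27). MAPKAPK2, a kinase downstream of p38, rose by 0.43 on the log2 scale and MAP4K4, an upstream kinase of JNK, by 0.31.

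Among 18 tested other inhibitors of Ras and ERK signalling, 10 were higher and 2 lower, 66.7% called beside 48.2% of all genes, with a median of 0.17. With counts summed to 2 samples a group, 6 of 19 tested were higher, where 2310 of 19241 genes were higher. The count of lower genes was 1 without IRF4 shRNA replicate 3, 4 or 5 or control replicate 4. RASA3, which switches off Ras, had 94.4 ± 7.56 CPM with IRF4 shRNA and 29 ± 1.47 CPM in control (log2 1.70, SE 0.06, edgeR adjusted p = 3.72e-12). RASAL1 and RASA1, which act on Ras in the same way, rose by 0.81 and 0.48 on the log2 scale. PEBP1, which binds Raf, was lower, at 98.8 ± 3.06 CPM with IRF4 shRNA against 132 ± 6.08 CPM in control (log2 -0.42). All 4 of these genes had groups that did not overlap.

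Transcripts known to respond to ERK showed the highest median of the 6 lists, 1.52, with 12 of 16 tested genes higher and 1 lower, beside 24.2% and 23.9% of all genes. The higher count includes genes, such as EMP1 (0.123 to 0.483 CPM in control), that passed the low-count filter through their shRNA libraries. All 6 lists were chosen with earlier results of these data known, so the order of their medians is no test. The EGR genes, transcription factors induced within minutes of ERK activation, led the list. EGR2 had 86.9 ± 6.39 CPM with IRF4 shRNA and 2.97 ± 0.328 CPM in control (log2 4.87, SE 0.08, edgeR adjusted p = 2.00e-15), EGR1 had 42.2 ± 4.65 CPM with IRF4 shRNA and 2.43 ± 0.416 CPM in control (log2 4.11), and EGR3 had 20.1 ± 2.41 CPM with IRF4 shRNA and 0.755 ± 0.0893 CPM in control (log2 4.72). ETV5, an ETS factor, rose by 1.49 on the log2 scale. None of these 4 had an shRNA library within the control range.

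Immediate early and heat shock genes, which also respond to handling of cells, were listed beside them, since DUSP1 belongs to the same class. Of 17 tested, 11 were higher and 2 lower, 76.5% called beside 48.2% of all genes, with a median of 0.53. FOS had 2.18 ± 0.383 CPM with IRF4 shRNA and 0.234 ± 0.0708 CPM in control (log2 3.19, SE 0.20, edgeR adjusted p = 4.71e-09), and NR4A1, a nuclear receptor of the early response to antigen receptor signals, had 34.8 ± 3.98 CPM with IRF4 shRNA and 6.75 ± 1.52 CPM in control (log2 2.36). FOS, at 0.127 to 0.320 CPM in control, passed the low-count filter through its shRNA libraries, and a gene let in that way had to differ. KLF6, a zinc finger factor, rose by 0.53 on the log2 scale. ATF3, a stress-induced transcription factor, was lower, at 41.0 ± 1.79 CPM with IRF4 shRNA against 58.4 ± 3.15 CPM in control (log2 -0.51). The part of handling in the values of DUSP1 and its relatives was not tested.

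**Figure D5:**
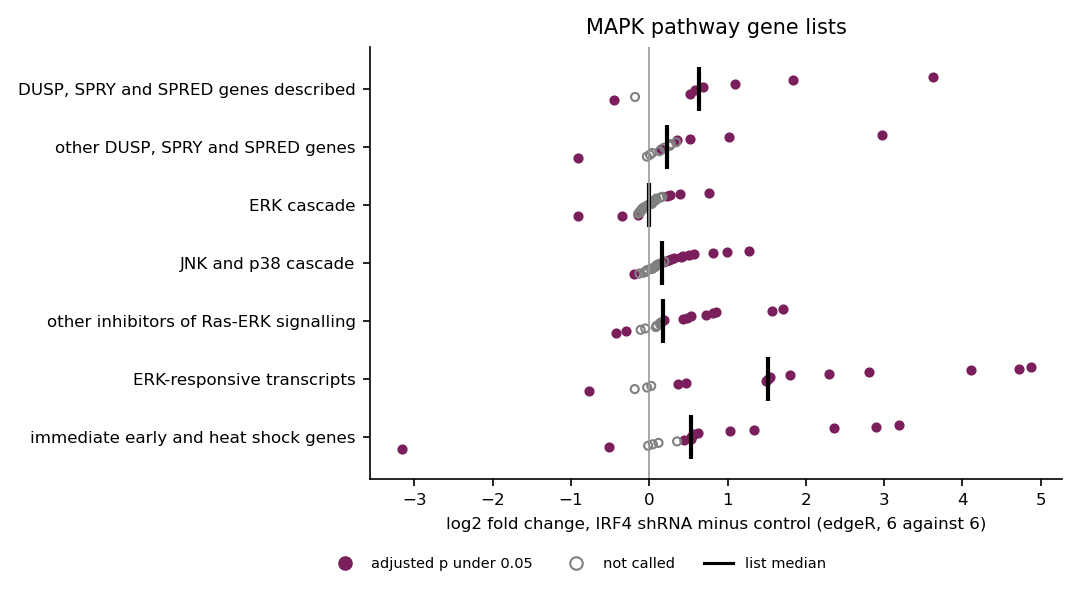
Log2 fold change, IRF4 shRNA minus control (horizontal axis, 6 against 6 libraries), of the tested genes of each list, filled where the edgeR adjusted p was under 0.05, with the list median as a bar. The 8 genes described have a median of 0.64 and the ERK-responsive transcripts one of 1.52, while the ERK cascade is centred at -0.01. The lists were chosen with earlier results of these data known.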

How the data were processed

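Poly(A) RNA was sequenced with a TruSeq stranded kit as paired-end reads of 100 bp, per the labels' protocols. The submitters' processing notes name STAR, HTSeq and hg38. The deposited table holds estimated counts per gene, not normalized by the authors; 66.6% of values are whole at a tolerance of 1e-06, and no source used here says what made the others fractional. Fractional counting can split reads between near-identical genes.

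Counts were rounded and tested in R 4.3.3 with edgeR 4.0.16 (quasi-likelihood, TMM, filterByExpr with a minimum count of 10), with Benjamini-Hochberg adjustment over all genes tested and no covariate. Called means an adjusted p under 0.05. SE is the log2 fold change over the square root of F. CPM uses TMM-scaled totals. Exon lengths came from GENCODE release 29. Each library was taken as 1 sample. Libraries of 1 group and series were not copies of each other, which does not show that they were grown apart. Chi-square over degrees of freedom was 2.83 to 3.62 between IRF4 shRNA libraries and 3.49 to 35.0 between control libraries. The fits were tested on simulated data.

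The genes and lists were chosen with earlier results of these data known. Genes named were all 10, IRF4, up to 4 with the smallest p per list, and the 3 nearest patterns of the 2 genes with the largest changes. Alternatives were DESeq2 1.42.0, its size factors, library size alone, no filter, series as covariate, a replicate block, GC correction, sums per group and series, and leaving out libraries. A cell line label that counts upward from TMD8 was disregarded, since every title says TMD8.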

Additional observations from a re-analysis of the deposited data

Results flagged for a closer look

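In 35 genes named here, 69 groups of 6 libraries were screened for a single library far from the others, and 0 were found, where chance would give about 1 in 20 groups. Each group pooled both library series, so where the series parted, a single odd library could be missed. Of 33 genes tested among those named, 6 (18.2%) differed between the library series by edgeR's interaction test, near the 14% of all genes. DUSP5 differed by 0.49 on the log2 scale (adjusted p = 0.00274) and DUSP22 by -0.17 (adjusted p = 0.0416), both series 2 minus series 1. IRF4, the target, differed by 0.46 (adjusted p = 0.0011). GAB1 differed by 0.56 (adjusted p = 0.0129), with log2 fold changes of -1.21 in series 1 and -0.63 in series 2. KSR1 differed by -0.52 (adjusted p = 0.00371), with 1.0 in series 1 and 0.50 in series 2. RASAL1 differed by -0.44 (adjusted p = 0.0103), with 1.02 in series 1 and 0.60 in series 2.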

How the results depend on the processing

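Over all libraries, 174 of 176 alternative values for the 8 tested genes kept their direction and their side of the threshold, and so did 80 of 80 in series 1 and, with DUSP6, 89 of 90 in series 2. DUSP6 accounts for 10 of those 90, all called, and it entered the series 2 fit through its shRNA libraries alone. Of the differences between series 107 of 136 did, while 13 lost and 2 gained the call and 14 changed sign. The exceptions were DUSP1 and DUSP5, given above, and DUSP5 in series 2, which was -0.00996 without control replicate 5, its range with 1 library left out being -0.00996 to 0.0756. The count of genes lower was 2 with series as covariate. Genes called numbered 4242 with counts summed to 2 samples a group, and 7544 to 8209 with 1 library left out. Genes differing between series numbered 1 under library size alone, without the low-count filter and with the replicate block, and 1 to 4 with 1 library left out. The difference between series was near 0 and changed sign for DUSP4 (0.000323 under library size alone, 0.014 after GC correction, 6.7e-05 by DESeq2, -0.35 to 0.22 with 1 library left out), DUSP10 (-0.19 to 0.0476 with 1 left out) and SPRED1 (-0.13 after GC correction, -0.00604 to 0.10 with 1 left out), and it reversed for DUSP2 (0.48 after GC correction). The cause was not tested. No pairing by replicate number was seen: same-numbered deviations correlated at -0.26 to 0.13, and 0 of 6 libraries correlated best with their own number. The deviations were from the group mean over both series, so differences between series and in GC trend could hide a pairing. With the replicate block 6942 genes were called by title number and 6918 by library name number. The block changed no call of the 8 genes over all libraries, but the DUSP22 difference between series was not called under it (adjusted p = 0.0905). Depth limits DUSP6 and SPRY1.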

Other observations

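Since DUSP22 lies next to IRF4, the table genes within 500 kb of IRF4 were looked at, a set chosen after values were seen. Of 7 tested neighbours, DUSP22 included, 5 were lower with IRF4 shRNA, 1 was higher and 1 was not called, where 23.9% of all genes tested were lower. Among the 5 are DUSP22, which prompted the look, and AL365272.1, whose reads in its overlap with DUSP22 cannot be told apart. The count is therefore no test of the region. AL035696.4 had 26.1 CPM with IRF4 shRNA and 120.4 CPM in control (log2 -2.21, edgeR adjusted p = 1.37e-14), and AL512308.1 had 2.93 CPM with IRF4 shRNA and 6.28 CPM in control (log2 -1.10). EXOC2, which encodes a subunit of the exocyst, was higher, at 52.5 CPM with IRF4 shRNA and 44.8 CPM in control (log2 0.23, adjusted p = 0.000697). In series 1 alone 5 were lower, where 24.6% of all genes were, and in series 2 alone 3 were lower, where 17.9% of all genes were.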
